A study of Bos taurus with 20 samples.

Results

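Blood is a mixture of cells whose abundant transcripts are present in every animal, so a gene that is clearly expressed in some cows and close to absent in others stands out. Genes of this kind were collected from whole blood of 20 pregnant recipient cows. A gene was called on in a cow at a CPM of 5 or more (the gene's count divided by the total count of that cow, times 1e6) and off at a CPM below 0.5, and it was kept if at least 4 cows were on and at least 4 others were off. Of 37063 genes in the counts, 10881 reached 5 CPM in at least 4 cows, and 17 met both conditions. The 17 genes were selected on these CPM values, so their on and off levels are given as a description without a test.

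All 20 cows belonged to 1 group. They were sampled once, at day 63 of gestation, and carried female fetuses from beef embryos produced in vitro with X-sorted semen. Blood was drawn from the tail into tubes that lyse the cells and stabilize RNA, and there was 1 library per cow. Recipients are described as lactating dairy cows in the methods, while a table of the study gives Angus as the recipient breed of this series. The 2 statements differ, and no breed was assigned to a cow here. The only variable labelled per cow was calf birth weight (BW), from 30 to 72.5 kg with no value shared by 2 calves. The study gives a range of recipient ages and used dam parity in its calving model, but neither is labelled per cow. Each cow is named by the weight of its calf (at 39 kg means the cow of the 39 kg calf). Total counts were between 24632077 and 39892111 per cow, with a median of 33412740, so 5 CPM was 123 counts in the smallest library and 199 in the largest, and 0.5 CPM was 12 counts in the smallest. The blood markers PTPRC, CSF3R and HBB, of leukocytes, granulocytes and red cells, summed to between 6138 and 7396 CPM in every cow. The 20 libraries were not repeats of one another (lowest chi-square per degree of freedom over 190 pairs, 12.6). Low values were more often 2 than 1, as when both reads of a fragment are counted. Of the values of 1 or 2, 73.5% were 2 over all cows, 70.5% to 79.5% in 19 cows and 45.7% at 39 kg, a cow whose library therefore stood apart in this measure.

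Sorted by symbol and gene type, 13 of the 17 were named protein-coding genes, 3 were protein-coding genes known only by a number and 1 was a long noncoding RNA. Named protein-coding genes made up 76.5% of the 17 genes and 86.5% of the 10881 expressed genes, and those known only by a number 17.6% and 3.60%. None of the 15 expressed MHC genes was among the 17, nor any of 7 immunoglobulin and T cell receptor genes, 63 interferon-related genes, 41 leukocyte receptor genes or 46 chemokine and cytokine genes. In that order, these classes were 0.138%, 0.0643%, 0.579%, 0.377% and 0.423% of the expressed genes. At such shares, their absence from 17 genes says little about them. Classes rest on symbols, so a gene known only by a number could not enter the leukocyte receptor class. LOC100336795 and LOC112445446 are set beside ULBP and RAET1 genes below, but whether they belong to that family was not tested.

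The 17 genes did not vary independently. On log2(CPM + 0.5), 11 of them formed 1 co-occurring group and the other 6 joined no group of 3 or more. Within the group the 55 pairs had Pearson correlations across the 20 cows between 0.78 and 0.99, with a median of 0.93. Correlations of a gene of the group with one of the other 6 genes were between -0.42 and 0.38 over 66 pairs, with a median of -0.11, and those among the 6 were between -0.14 and 0.54 over 15 pairs. These coefficients share libraries and describe likeness only. The lowest were those of SERPINB4 with MYBPC1 (-0.42), TNNC1 (-0.40) and CKM (-0.38).

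All 11 genes of the group are known from striated muscle. In a muscle fibre, thick filaments of myosin pull on thin filaments of actin, and calcium starts the contraction by binding to the troponin complex of the thin filament. Slow and fast fibres carry different versions of the myosin and troponin proteins, and creatine kinase and myoglobin supply the fibre with energy and oxygen. The plot of the 17 genes by cow shows these genes well above 5 CPM in some cows and at or near 0 in others.

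**Figure D1:**
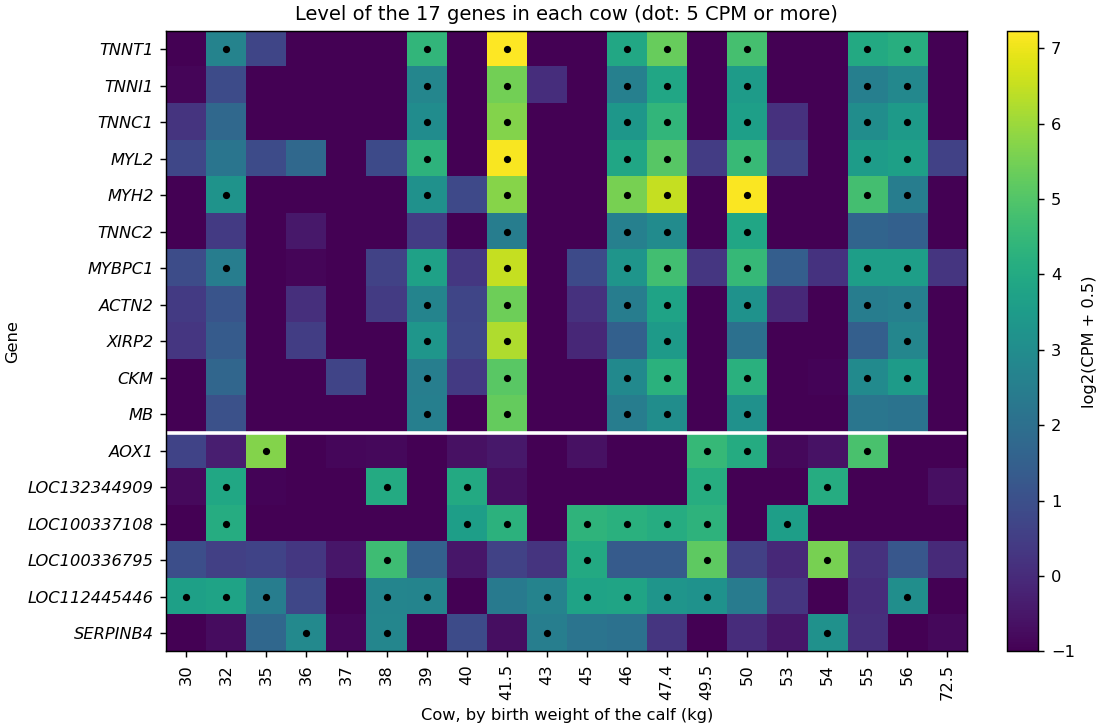
Level of the 17 genes (rows) in each of the 20 cows (columns, by birth weight of the calf in kg), as log2(CPM + 0.5), with a dot where a gene was at 5 CPM or more. Of the 11 genes above the white line, 8 to 11 were on in each of 7 cows, while the 6 genes below it were each on in a different set of cows.

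Slow-fibre genes of the thin filament were on in 7 or 8 cows. TNNT1, the slow troponin T that ties the complex to tropomyosin, was on in 8 cows, at 5.84, 14.8, 15.3, 17.2, 20.9, 27.4, 38.9 and 149 CPM, was at 1.16 CPM at 35 kg, and had no count in the remaining 11 cows. For the 11 cows at 0, a floor of 3 counts was taken, that is 0.122 CPM in the smallest library. The lowest on level of TNNT1 was at least 47 times that floor. If both reads of a fragment were counted, a floor of 3 fragments would be higher and the fold smaller. TNNI1, the slow inhibitory subunit, was on in 7 cows between 5.31 and 44.3 CPM (median 6.70) and no higher than 0.0406 CPM in the 11 cows in which it was off. TNNC1, the calcium-binding subunit of slow and cardiac muscle, was on in 7 cows between 7.41 and 51.1 CPM (median 10.6) and had no count in 10. The 3 subunits of the slow complex were therefore on together in 7 cows, and TNNT1 alone of them was on in the cow of the 32 kg calf.

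MYL2, the regulatory light chain of slow and cardiac myosin, was on in the same 7 cows between 11.3 and 142 CPM (median 19.6), but it was off in only 5 cows. In the other 8 cows it lay between the thresholds, up to 4.10 CPM in the cow of the 32 kg calf. MYBPC1, the slow myosin-binding protein C of the thick filament, was likewise on in 8 cows (5.16 to 89.4 CPM, median 12.2), between in 8 and off in 4.

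Fast-fibre genes were on in nearly the same cows. MYH2, the heavy chain of fast oxidative myosin, was on in 8 cows, at 5.14, 8.36, 8.84, 26.8, 45.5, 53.0, 89.8 and 143 CPM, was at 1.25 CPM at 40 kg, and had no count in 11 cows. TNNC2, the calcium-binding troponin of fast fibres, had the lowest maximum of the group, on at 5.09, 5.51, 7.25 and 14 CPM in 4 cows and at no more than 0.218 CPM in 12. Both were highest in the cow of the 50 kg calf, whereas each of the other 9 genes of the group was highest in the cow of the 41.5 kg calf.

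Genes shared by fibre types completed the group. CKM, the creatine kinase of muscle, was on in 7 cows between 5.17 and 33.9 CPM (median 10.9). MB, which encodes myoglobin, was on in 5 cows between 5.05 and 38.7 CPM (median 7.72), was at 1.56, 3.92 and 4.14 CPM in 3 and had no count in 12. ACTN2, the actinin of the Z-disc to which thin filaments are anchored, was on in 7 cows between 5.05 and 41.6 CPM (median 5.99). XIRP2, an actin-binding protein of the same region of the fibre, was on in 4 cows, at 6.29, 9.39, 10.6 and 74.5 CPM. For XIRP2 and MYL2 the step between on and off was less sharp than for MB or TNNT1, since 7 and 8 cows, respectively, lay between the thresholds.

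Summed over the 11 genes, the level was 723 CPM in the cow of the 41.5 kg calf, 291 in that of the 50 kg calf, 280 (47.4 kg), 124 (46 kg), 102 (39 kg), 99.5 (55 kg) and 92.8 (56 kg). In each of these 7 cows 8 to 11 of the genes were on and none was off, and all 11 were on in 2 of them, the cows of the 41.5 and 47.4 kg calves. The cow of the 32 kg calf lay between, with 37.1 CPM, 3 genes on (MYH2, TNNT1 and MYBPC1) and none off. In the other 12 cows the sum was 0.555 to 5.16 CPM, none of the 11 genes was on and 6 to 10 of them were off. No cow fell between 5.16 and 37.1 CPM or between 37.1 and 92.8 CPM. Total counts of the 7 cows (26251031 to 36730117) lay within the range of the 12 (24632077 to 39892111), and when every library was thinned to the smallest total the rule gave the same 17 genes.

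**Figure D2:**
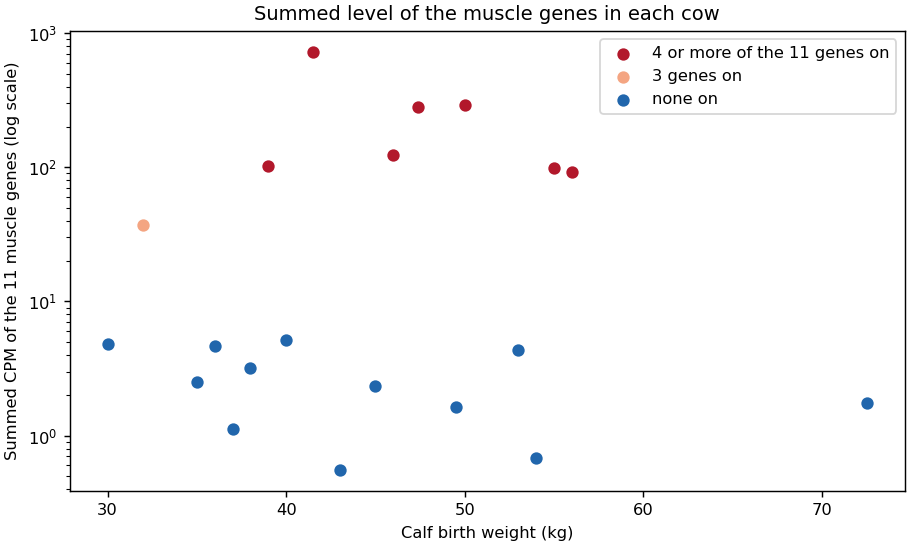
Summed CPM of the 11 muscle genes (log scale) against the birth weight of the calf, 1 point per cow. The 7 cows with at least 4 of the genes on lie between 92.8 and 723 CPM, the cow of the 32 kg calf at 37.1 CPM and the 12 cows with none on at no more than 5.16 CPM.

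Fast and slow genes did not keep 1 proportion. Since gene length is the same in every cow, ratios of CPM can be set side by side between cows. Among the 8 cows in which any of the 11 genes was on, MYH2 over TNNT1 was 0.299 (56 kg), 0.355 (41.5 kg), 0.400 (39 kg), 1.52 (32 kg), 1.75 (55 kg), 2.31 (47.4 kg), 3.08 (46 kg) and 5.23 (50 kg), a range of 17.5-fold. The smallest counts behind these ratios were 135 for MYH2 and 225 for TNNT1. The troponin C pair, TNNC2 over TNNC1, ranged 11.6-fold, from 0.0997 (41.5 kg), 0.118 (39 kg), 0.224 (56 kg), 0.274 (32 kg), 0.340 (55 kg), 0.352 (47.4 kg) and 0.562 (46 kg) to 1.15 (50 kg), with counts of TNNC2 as low as 31. Of the 8 cows, 5 had the same place in both orders, and the other 3, those of the 39, 41.5 and 56 kg calves, had the 3 lowest ratios in each. No cow was sampled again, so the spread of either ratio between samples of 1 cow is not known.

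**Figure D3:**
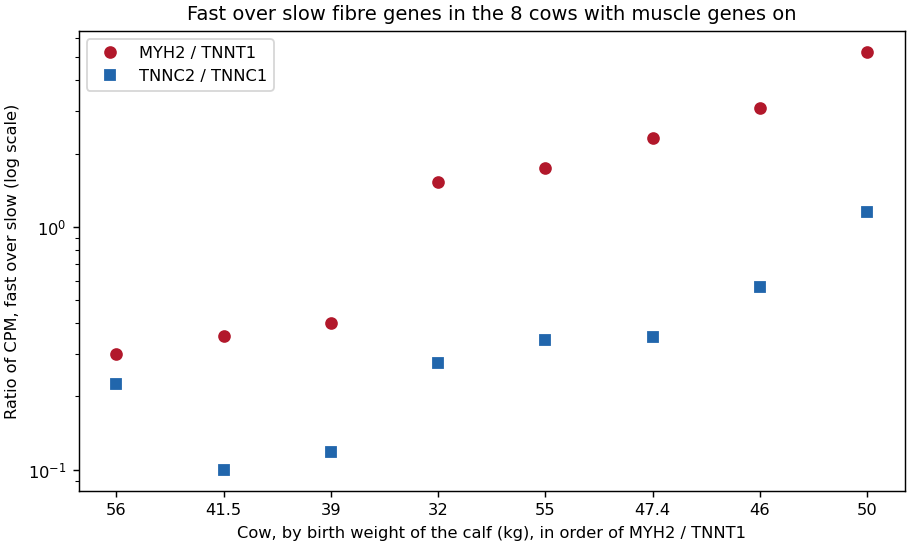
Ratio of fast to slow fibre genes (CPM over CPM, log scale) in the 8 cows in which any muscle gene was on, ordered by MYH2 over TNNT1 and labelled by the birth weight of the calf in kg. MYH2 over TNNT1 rises from 0.299 to 5.23, and TNNC2 over TNNC1 takes a similar order, from 0.0997 in the cow of the 41.5 kg calf to 1.15 in that of the 50 kg calf.

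Many of the muscle genes on the lists used here, though not all, moved with the group. From lists of 59 slow-fibre, fast-fibre and shared muscle genes, written after values had been seen and used only to describe, 46 genes were not among the 17 and had a count. The mean of the 11 genes across cows had a correlation of 0.8 or more with 27 of these 46 and below 0.5 with 10. The share of all genes that reached 0.8 was not counted, so these numbers describe the lists only. Among 16604 genes with 10 counts in at least 4 cows, the 30 outside the group most like its mean were also read. Of those 30, 21 were on the lists and the rest were not. ACTA1, skeletal muscle actin, and MYH7, the slow myosin heavy chain, both had a correlation of 0.97 and failed the rule only because they were never off. MYH7 was at 56.7 to 786 CPM (median 115) in the 7 cows and at 3.16 to 13.4 CPM (median 6.34) in the 12, and ACTA1 at 28.6 to 172 CPM (median 35.0) and 6.47 to 11.3 CPM (median 8.79). MYOT, the Z-disc protein myotilin, was at 2.57 to 29.0 CPM in the 7 cows and no higher than 0.602 CPM in the 12. Some muscle genes did not follow, such as CACNA1S, the calcium channel of the fibre membrane (correlation -0.13), and ENO3, muscle enolase (-0.30), which were read in every cow. MYH7 shares sequence with MYH6, a cardiac myosin gene (correlation 0.92, at most 11.6 CPM), so reads may have been divided between the pair.

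Of the marker lists for other tissues, the summed heart list did not overlap between the 7 and the 12 cows, by a narrow margin. Its 6 genes summed to 1.03 to 12.4 CPM and 0.0348 to 1.01 CPM. MYH6 was the only one of them to reach 5 CPM in any cow, at 0.912 to 11.6 CPM in the 7 and at most 0.528 CPM in the 12. The other heart genes did not separate the cows. NPPA reached 0.354 CPM in the 7 and 0.627 in the 12, TNNT2 0.194 and 0.102, TNNI3 0.290 and 0.232, and MYL7 0.109 and 0.325. Each of these was at 0 in some cows of both sets, and NPPB had no count. The lists that follow overlapped. Summed CPM of 4 skin keratin and surface genes was 0 to 0.415 in the 7 cows and 0 to 0.544 in the 12. The 4 epithelial genes summed to 0.319 to 2.13 and 0.556 to 3.80, the 4 fat genes to 3.17 to 5.39 and 2.53 to 6.13, the 5 smooth muscle genes to 9.03 to 27.5 and 9.29 to 22.2, and the 5 connective tissue genes to 0.858 to 2.12 and 0.218 to 72.4. Of the 5 trophoblast and the 5 milk genes none reached 5 CPM in any cow, and all 10 had a median of 0. Among blood cells, the neutrophil sum was 2533 to 4294 and 2688 to 4265, the T cell sum 384 to 616 and 360 to 536, the platelet sum 489 to 918 and 467 to 1391, and the red cell sum 54.5 to 295 and 54.7 to 1110 CPM. In whole blood, fewer cells of a type and less RNA per cell cannot be told apart, and the part of blood drawing, or of any other source, in the muscle transcripts was not tested.

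The other 6 genes were each on in their own set of cows. AOX1, an aldehyde oxidase that oxidises aldehydes and many nitrogen heterocycles, was on in 4 cows, at 51.9 (35 kg), 28.3 (55 kg), 22.2 (49.5 kg) and 16.3 CPM (50 kg). It was at 1.06 CPM at 30 kg and at no more than 0.311 CPM, 12 counts, in the other 15 cows, 7 of which had none. AOX4 and AOX2, its neighbouring paralogs, were low throughout, AOX4 at 0.619 to 1.03 CPM where AOX1 was on and 0.174 to 0.791 CPM where it was off, and AOX2 at 0.619 to 1.31 and 0.337 to 1.36 CPM. AOX1 and AOX4 had a correlation of 0.69 and AOX1 and AOX2 of 0.16. Reads that fit several of these paralogs may have been split, as the handling of such reads is not stated.

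**Figure D4:**
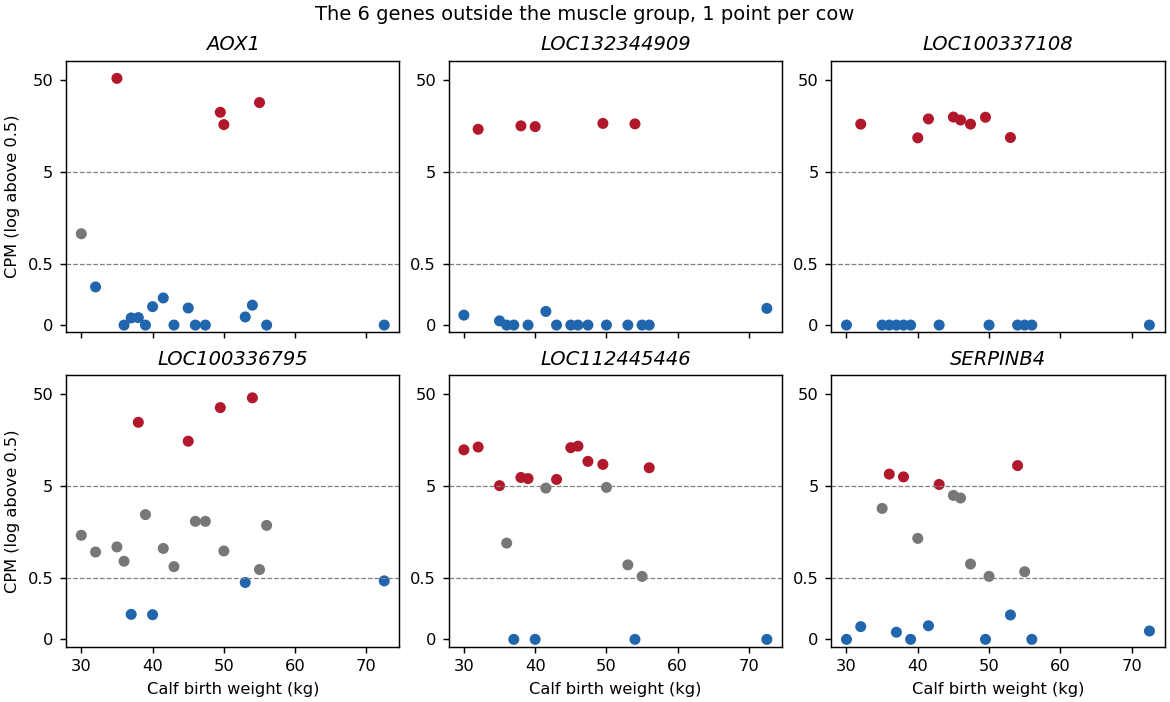
CPM of the 6 genes outside the muscle group against the birth weight of the calf, 1 point per cow (red: on at 5 CPM or more, blue: off below 0.5 CPM, grey: between, with dashed lines at both thresholds). LOC132344909 and LOC100337108 have no cow between the thresholds, LOC100336795 and LOC112445446 have 12 and 5.

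LOC132344909, a long noncoding RNA, was the most uniform of the 17 where it was on. Its levels in 5 cows were 14.5 (32 kg), 15.5 (40 kg), 15.8 (38 kg), 16.6 (54 kg) and 16.8 CPM (49.5 kg), a coefficient of variation of 5.77%. In the other 15 cows it was at no more than 0.136 CPM, which was 4 counts, and 11 of them had no count. The neighbouring long noncoding RNA LOC132344910 was at 1.21 to 2.33 CPM in those 5 cows and had no count in the 15 others (correlation 0.99). On the other side ECHDC2, an enoyl-CoA hydratase domain gene, was low in every cow, at 0 to 0.363 CPM where LOC132344909 was on and 0.0977 to 0.646 CPM where it was off. SCP2, a sterol carrier protein gene that precedes the pair, ranged from 123 to 137 CPM in the 5 cows and 93.8 to 137 CPM in the 15, with overlap.

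LOC100337108, a protein-coding gene known only by its number, was on in 8 cows, at 11.7 (40 kg), 11.8 (53 kg), 16.5 (32 kg), 16.5 (47.4 kg), 18.3 (46 kg), 18.8 (41.5 kg), 19.6 (49.5 kg) and 19.7 CPM (45 kg), and had no count in the other 12. The lowest on level was at least 96 times the same floor of 3 counts, with the same limit. No cow lay between, and the coefficient of variation among the 8 was 19.4%. Some genes beside it also varied widely between cows, with ranges that overlapped between its states. LOC112449072 ranged from 0.730 to 134 CPM where LOC100337108 was on and from 0.493 to 119 CPM where it was off (correlation 0.13), and LOC104969875 from 2.60 to 24.0 and from 1.12 to 27.6 CPM (correlation 0.35). On the other side, LOC100337076 was at 1.36 to 3.36 and 0.423 to 3.13 CPM (correlation 0.37). LOC100848914 reached no more than 0.313 CPM in any cow (correlation 0.49).

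LOC100336795 and LOC112445446 are both protein-coding and known only by number. Gene order placed the first, and likeness across cows alone the second, beside genes of the ULBP and RAET1 family. Those genes encode surface ligands of NKG2D, an activating receptor of natural killer and T cells, and are present in many copies in cattle. LOC100336795 lies between ULBP17 and RAET1G in the gene order of the table used for names, and was on in 4 cows, at 45.6 (54 kg), 35.7 (49.5 kg), 24.7 (38 kg) and 15.4 CPM (45 kg). Its state was graded rather than absent, with 12 cows between 0.619 and 2.45 CPM and the 4 lowest at 0.201 to 0.477 CPM. ULBP17 was at 1.32 to 2.29 CPM where LOC100336795 was on and at 0.376 to 0.828 CPM where it was off. The 12 cows between are not in these ranges, and the lowest ULBP17 value, 0, fell among them (correlation over all cows 0.55). RAET1G was at 0.242 to 0.810 and 0.175 to 0.818 CPM, with overlap (correlation -0.12). The share of all genes that differ as ULBP17 did was not counted.

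LOC112445446 was on in the most cows of the 17 genes, 11, between 5.06 and 13.6 CPM (median 8.61). It had no count in the cows of the 37, 40, 54 and 72.5 kg calves and was at 0.521 to 4.84 CPM in the other 5. The gene most like it over the 20 cows was ULBP13 (correlation 0.94), at 4.54 to 9.07 CPM where LOC112445446 was on and 1.58 to 2.46 CPM where it was at 0. ULBP27 (0.89), at 0.527 to 2.16 and 0 to 0.341 CPM, and RAET1L (0.83), at 1.15 to 3.39 and 0.495 to 1.03 CPM, came next. These 3 had been picked for their likeness, so the gap between their ranges is no separate result. After them came LOC112445505 (0.81) and LOC112441504 (0.73), which carry no ULBP or RAET1 symbol. They were at 0.139 to 0.419 and 0.838 to 2.27 CPM where LOC112445446 was on, and at 0 where it was at 0. The share of all genes with such a gap was not counted. Other genes of the family followed LOC112445446 less or not at all: ULBP21 (0.54), RAET1G (-0.04) and ULBP17 (-0.09). LOC112445446, ULBP13 and ULBP27 have no chromosome in the table, and near-identical copies may have shared reads, so levels of single family members are uncertain.

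SERPINB4, a member of a family of intracellular protease inhibitors, had the lowest median on level of the 6 (6.52 CPM), with 8.37 (54 kg), 6.75 (36 kg), 6.30 (38 kg) and 5.21 CPM (43 kg). It was at 0.522 to 3.96 CPM in 7 cows and at 0.199 CPM or less in 9. The genes most like it, LOC112445470 (1.20 to 3.08 CPM where it was on and 0 to 0.681 where it was off) and LOC107131803 (11.1 to 27.3 and 0.360 to 7.65 CPM), each had a correlation of 0.90 with it.

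Some of the 17 stood close to the thresholds. TNNC2, with 5.09 CPM as its 4th highest value, SERPINB4 with 5.21 CPM and LOC100336795 with 0.477 CPM as its 4th lowest were nearest to being left out. Nearest on the outside were LOC101906101 (4th highest 4.77 CPM), AGBL1 (4.73 CPM, 4th lowest 0.508 CPM) and LOC132345910 (4.56 CPM). LTF, which encodes the neutrophil granule protein lactoferrin, was on in 3 cows and off in 5 and reached 48.3 CPM. On at 10 CPM in place of 5, 11 of the 17 remained, and on at 2 CPM 59 genes met the rule, all 17 among them.

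The on or off state itself was not tested against calf BW. Instead, the slope of the level of each gene on BW was fitted in 19 cows, so the height of a few high cows enters it. The cow of the 72.5 kg calf was left out, as the study had also set it aside as an outlier. All 17 genes passed the filter on low counts (at least 10 counts in at least 5 cows) among 16206 genes tested with edgeR's quasi-likelihood test, and false discovery rates (FDR, Benjamini-Hochberg) were taken over all of them. BW was not used to choose the genes. None of the 17 was associated with BW at FDR below 0.05, nor was any of the 16206 genes (0%). At an unadjusted p below 0.05 there was again none of the 17, against 2247 of the 16206 genes (13.9%). DESeq2 on the same genes called 0 of the 17 at FDR below 0.05, against 186 of the 16206 (1.15%), and gave 1 of the 17 an unadjusted p below 0.05, against 2339 (14.4%). The permutation test of Spearman's correlation gave 0 by either measure, against 2218 of 16206 genes (13.7%) at an unadjusted p below 0.05.

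The smallest p-values belonged to the fast-fibre genes and LOC100336795. Per kg of calf BW, the slope was 0.19 ± 0.095 log2 units (SE, edgeR p = 0.0639, FDR = 0.398) for TNNC2, 0.12 ± 0.066 (p = 0.0784, FDR = 0.430) for LOC100336795 and 0.19 ± 0.11 (p = 0.0963, FDR = 0.464) for MYH2. The unadjusted p of LOC100336795 was 0.0409 with DESeq2. Slopes below 0 were those of LOC112445446 (-0.037 ± 0.050, edgeR p = 0.473), XIRP2 (-0.032 ± 0.12, p = 0.792) and LOC132344909 (-0.011 ± 0.086, p = 0.900). The sign was not stable for XIRP2, whose slope was 0.0011 with DESeq2 and 0.054 without the 41.5 kg calf's cow, nor for LOC132344909, at 0.0043 without that of the 56 kg calf. In all, 14 of the 17 slopes were above 0 (82.4%), as were 46.6% of the slopes of all genes tested. With the cow of the 72.5 kg calf included, 6 of 17 were above 0. The 11 muscle genes moved together and do not count as separate evidence of a direction. Standard errors, derived here from the test statistic of each gene, were wide in comparison with the slopes. A relation of these genes with BW is therefore neither established nor shown to be absent.

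**Figure D5:**
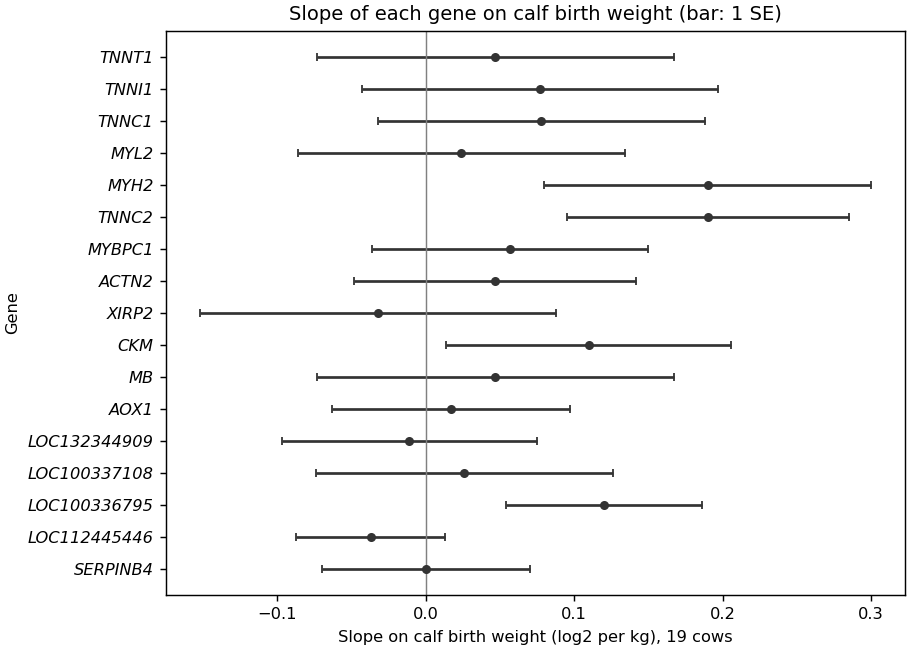
Slope of each of the 17 genes on calf birth weight (log2 units per kg, 19 cows), with a bar of 1 SE, derived from the test statistic, on either side. The slopes run from -0.037 for LOC112445446 to 0.19 for TNNC2 and MYH2, and none was associated with birth weight at FDR below 0.05.

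Calf weights overlapped between the states. The 7 cows with at least 8 muscle genes on had calves of 39, 41.5, 46, 47.4, 50, 55 and 56 kg, with a median of 47.4 kg. The 12 with none on had calves from 30 to 72.5 kg, with a median of 41.5 kg. The heaviest of those calves is that of the cow left out of the slopes, and this difference in medians was not tested. Cows in which LOC132344909 was on had calves of 32 to 54 kg, those with LOC100337108 on 32 to 53 kg, those with AOX1 on 35 to 55 kg, those with LOC100336795 on 38 to 54 kg, those with SERPINB4 on 36 to 54 kg and those with LOC112445446 on 30 to 56 kg. Each of the 6 was off at 72.5 kg and also at 37 kg, and none of the 17 genes was on in either cow.

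Among the 46 other muscle genes with a slope, none had an FDR below 0.05 (edgeR), and at an unadjusted p below 0.05, 2 had a positive and 1 a negative slope, in all a smaller share than the 13.9% of all genes tested. They were MYL11, a fast myosin light chain (slope 0.130 ± 0.054 per kg, FDR = 0.284), TCAP, a Z-disc protein (0.036 ± 0.013, FDR = 0.237), and CACNA1S (-0.024 ± 0.009, FDR = 0.219).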

How the data were processed

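Whole-blood RNA of 20 cows at day 63 of gestation was measured with 1 library per cow. The authors trimmed reads with Trimmomatic after FastQC 0.11.9, aligned them with STAR 2.7.0b, counted them with featureCounts (Subread 2.0.3), and deposited raw counts per Entrez identifier without normalization. Kit names differ between the paper (Truseq-stranded mRNA) and the labels (SMARTer Stranded). The strand setting and the handling of reads that fit several genes are not given in the sources used here. Symbols, gene types and gene order came from a RefSeq table of assembly ARS-UCD2.0, in which every identifier was found, and no coordinates are printed because the build differs. The table holds no descriptions, so classes rest on symbol and type.

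CPM was the count over the total count of a cow times 1e6. Groups came from average linkage on 1 minus Pearson's r of log2(CPM + 0.5), cut at r = 0.7. Slopes on birth weight used edgeR 4.0.16 (R 4.3.3), TMM normalization and the quasi-likelihood test in 19 cows, after genes under 10 counts in all but 4 or fewer cows had been left out. DESeq2 1.42.0 and a permutation test of Spearman's correlation (100000 resamples, two-sided, Python 3.11.15, numpy 2.4.6, scipy 1.17.1) were alternatives, with other scalings, thresholds and sets of cows. Leaving out each cow from the selection and the grouping was added after seeing the data. Scripts were tested on simulated data. Floors of 3 counts cover counting error only. The SE of an edgeR slope is its absolute value divided by the square root of the test's F statistic, so it restates the p-value. Each p-value measures the spread between cows.

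The 17 genes and the lists were chosen with earlier results of these data known. The named genes are, by rule, the 3 highest of each class, the 3 most alike of a group, the 3 smallest p-values in each direction, the 3 least alike pairs and those nearest the thresholds; the remaining members, neighbours, most similar genes and muscle genes were named after their values were seen.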

Additional observations from a re-analysis of the deposited data

How the results depend on the processing

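The number of genes on or off was 16 with TMM scaling or off below 0.1 CPM, 17 with thinned libraries, 19 with at least 3 cows and 15 when the 72.5 kg calf's cow was left out. It was 11 with on at 10 CPM, 59 with on at 2 CPM, 26 with off below 1 CPM and 10 with at least 5 cows, and between 14 and 17 with 1 cow left out, lowest without that of the 37 or the 54 kg calf. One group of 11 genes was found at a cut of 0.6 or 0.8, with Spearman's rho and with a pseudocount of 0.1 CPM, and 1 group whichever cow was left out.

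Genes of the whole table with an FDR below 0.05 numbered 0 with edgeR, 186 with DESeq2, 147 without the filter on low counts and 4 with all 20 cows, and 0 to 34 with 1 cow left out, highest when that of the 32 kg calf was left out. At an unadjusted p below 0.05 there were 3409 without the filter, and 1605 to 2464 with 1 cow left out. None of the 17 genes passed the FDR under any alternative. At an unadjusted p below 0.05, 1 did with DESeq2, 1 with the rank of birth weight, and 0 to 1 with 1 cow left out. With 1 cow left out, the slope ranged from 0.13 to 0.23 for TNNC2, 0.061 to 0.20 for LOC100336795, 0.13 to 0.26 for MYH2, -0.058 to -0.022 for LOC112445446, -0.068 to 0.054 for XIRP2 (positive when that of the 41.5 or the 54 kg calf was left out) and -0.027 to 0.0043 for LOC132344909. XIRP2 had a positive slope with DESeq2 (0.0011) and a positive Spearman correlation (0.16). LOC132344909 could not be tested in 5 of 19 fits, where fewer than 5 cows kept 10 counts. The causes were not tested.

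No paired analysis was possible because all cows belong to 1 group. Depth limits what off means, since 3 counts were 0.122 CPM in the smallest library.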
